A study of Mus musculus with 12 samples.

Results

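A set of 10 genes that mark the endothelium, the cell layer that lines blood and lymph vessels, was followed in mouse hearts with mutant IDH2, the mitochondrial isocitrate dehydrogenase. They were the VEGF receptors Kdr, Flt1 and Flt4, the angiopoietin receptor Tek and its partner Tie1, the TGF-beta family co-receptor Eng, the junction genes Cdh5, Esam and Pecam1, and the sialomucin Emcn. Each was taken by name from the array annotation, and all 10 of the 10 names had exactly 1 probe set that carried a single gene symbol, among 19937 genes measured. RNA came from 12 heart samples, 4 of control mice, 4 of R140Q mice (mutant IDH2 with glutamine in place of an arginine) and 4 of R172K mice (lysine in place of another arginine), with 1 Affymetrix array each. The mice of every group had a mixed background of the strains C57BL/6, 129/sv and Balb/c. Both mutant groups were treated with 4-hydroxytamoxifen, 2 mg, for 3 days, at the age of 5 weeks; this drug often serves to activate Cre fusion proteins. The sources used here do not give the Cre line, its promoter, the treatment of the controls, the sex of the mice or their age at dissection. The effect of the drug and the effect of the mutation therefore cannot be told apart. The labels number the replicates but do not say in words that each was a separate animal, so each p-value rests on the spread among these 12 samples, which may be partly technical.

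Signals from vessel growth factors reach the endothelium through a small set of receptor kinases. VEGF-A acts mainly through Kdr, while Flt1 binds it tightly and holds it back, and Flt4 receives VEGF-C and VEGF-D and is best known from lymphatic vessels. Angiopoietin 1 keeps vessels quiet through Tek, and Cdh5, or VE-cadherin, joins endothelial cells at adherens junctions, where Kdr and Tek also signal. The adult heart has a dense capillary bed, so transcripts of these genes are abundant in RNA from whole heart.

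The values are RMA intensities, a brightness per probe set that RMA corrects for background and puts on one distribution over all arrays, and they are given here as log2, so that a positive difference means a brighter signal. Array medians lay between 74.8 and 78.0 on the linear scale, correlations between arrays lay between 0.9687 and 0.9969, and the number of arrays limits the precision. Mean levels of the 10 genes lay at the 63.2 percentile of all genes for Flt4 and between the 86.2 and the 98.3 percentile for the other 9. Brightness differs between probe sets for reasons other than transcript number, so no gene's level is set against another's. Differences were tested with limma on all genes and all 12 arrays, with p-values adjusted over all genes by the Benjamini-Hochberg method, and a gene was called at an adjusted p under 0.05. Counts at an unadjusted p under 0.05 are given for some lists as description only. The share of all genes at that cut was not counted. In RNA from whole tissue, more cells of a type and more RNA per cell cannot be told apart.

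Some arrays stood apart in markers of other tissue. In R140Q replicate 4 the 10 lung epithelial markers summed to an intensity of 5459, against 514 to 566 in the other 2 groups, and its level of Sftpc, a surfactant gene, was 11.57, against 4.66 to 5.51 in the other 11 arrays. The 10 atrial markers summed to 35171 in control replicate 3, against 8739 in the lowest control array. Myl7, the atrial myosin light chain, was between 5.23 and 6.04 in the R140Q arrays and between 6.18 and 12.49 in the control arrays, and these ranges did not overlap (adjusted p = 0.1090). The array weights that limma estimates were lowest for R172K replicates 3 and 4, at 0.365 and 0.366, against 0.901 to 1.962 for the other 10 arrays.

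In R140Q hearts 4 of the 10 genes rose, namely Esam, Kdr, Cdh5 and Flt4, each by between 1.33-fold and 1.40-fold, and none fell. Of all genes, 1.08% were called higher in this comparison and 1.12% lower (2.2% in either direction). These were 216 higher and 223 lower genes, and 268 and 178 with each array centred on its median. All 10 differences were positive, and their median was 0.29 on the log2 scale, against 0.00 (0.003) over all genes. In 7 of the 10 the lowest R140Q array lay above the highest control array, which was so for 7.79% of all genes. In R172K hearts 2 of the 10, Kdr and Esam, rose and none fell, while 6.23% of all genes were called higher and 6.78% lower (13% in either direction). The arrays of these 2 genes did not overlap with the controls, as was so for 7.47% of all genes in this direction. The 8 positive differences of 10 and the median of 0.17 stood beside a median of −0.003 over all genes. Both comparisons use the same 4 control arrays.

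**Figure D1:**
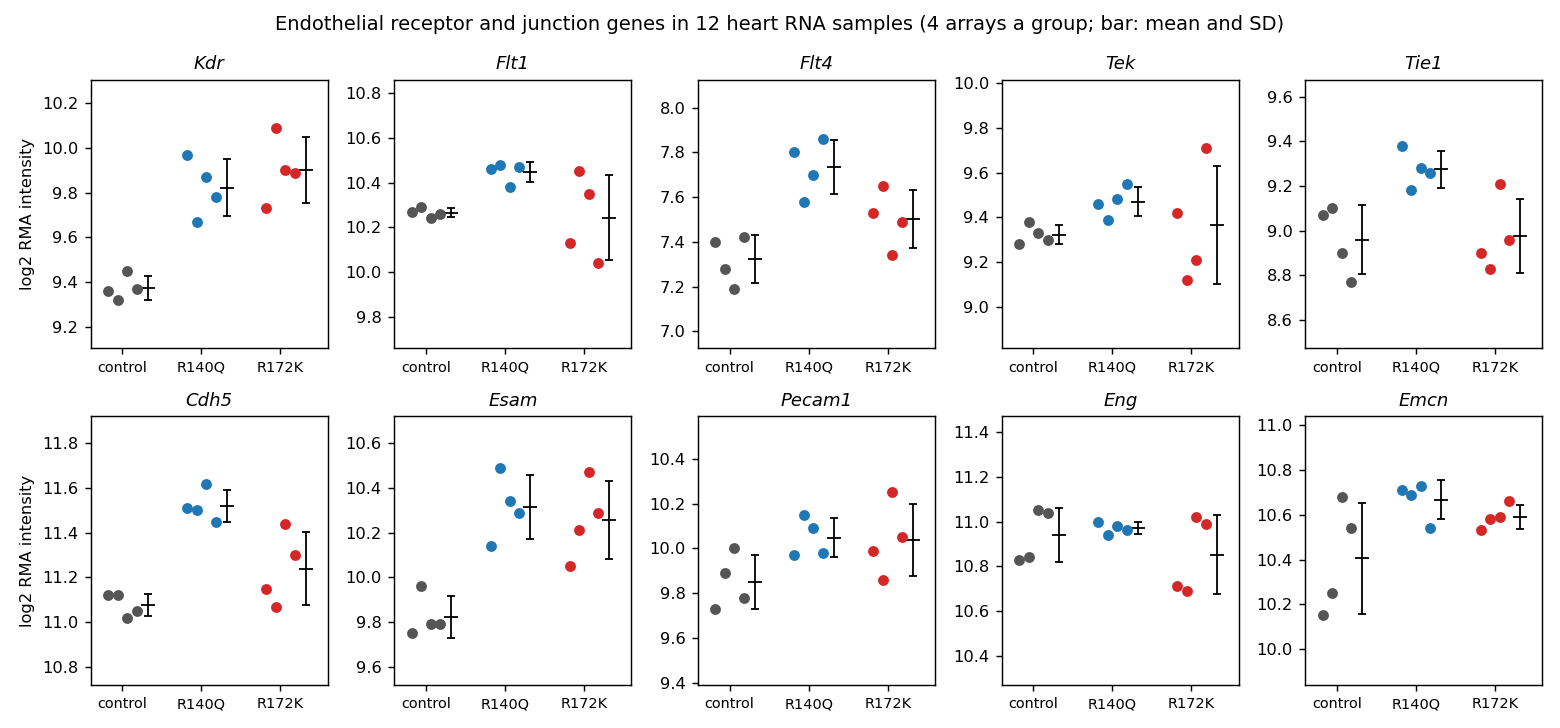
Log2 RMA intensity (vertical axis) of each of the 10 genes in each array, by group (horizontal axis). Points are arrays, and bars show the mean and SD of 4 arrays. The Kdr points of both mutants lie above all control points, those of Cdh5 and Flt4 do so in R140Q, and those of Eng overlap in all 3 groups.

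The start regions of the 3 VEGF receptor genes are shown here because RefSeq gives all 3 of them. Each line below holds 250 bases before to 50 bases after the RefSeq start in the mouse build GRCm38.p6, 5′ to 3′ on the gene's strand, and capitals mark GGAA or its reverse complement TTCC, the core of the motif that ETS factors such as Erg and Fli1 bind. The Kdr window is chr5:75978406-75978705 on the minus strand, the Flt1 window chr5:147725962-147726261 on the minus strand and the Flt4 window chr11:49609429-49609728 on the plus strand.
Kdr: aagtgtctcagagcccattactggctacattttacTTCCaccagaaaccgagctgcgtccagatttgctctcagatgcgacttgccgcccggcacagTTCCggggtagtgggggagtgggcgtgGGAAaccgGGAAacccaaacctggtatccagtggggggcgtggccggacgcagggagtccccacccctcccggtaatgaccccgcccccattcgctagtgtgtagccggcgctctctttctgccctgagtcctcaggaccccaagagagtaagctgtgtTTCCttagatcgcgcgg
Flt1: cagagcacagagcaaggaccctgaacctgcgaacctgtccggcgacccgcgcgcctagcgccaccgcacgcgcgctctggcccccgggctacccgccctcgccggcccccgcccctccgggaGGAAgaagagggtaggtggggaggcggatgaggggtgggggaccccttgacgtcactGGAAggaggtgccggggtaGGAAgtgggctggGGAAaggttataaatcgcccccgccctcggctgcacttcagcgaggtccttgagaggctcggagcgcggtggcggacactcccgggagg
Flt4: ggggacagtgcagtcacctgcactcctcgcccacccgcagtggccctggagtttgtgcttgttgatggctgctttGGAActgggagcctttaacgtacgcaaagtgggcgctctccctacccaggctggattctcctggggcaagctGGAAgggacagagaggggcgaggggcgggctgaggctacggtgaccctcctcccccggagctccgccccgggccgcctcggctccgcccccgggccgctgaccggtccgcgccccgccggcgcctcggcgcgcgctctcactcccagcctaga
Counted on both strands, GGAA occurred 5 times in the Kdr window, 4 times in that of Flt1 and 2 times in that of Flt4. These counts are close to the median of 3 over 32851 windows of the same length, 96.0% of which hold the core. The longer core AGGAAG, which contains GGAA, occurred 2 times in the Flt1 window and was not in those of Kdr and Flt4, while 35.4% of all windows hold it. The Sp1 motif GGGCGG occurred 2 times in Kdr, 3 times in Flt1 and 3 times in Flt4, and 35.7% of all windows hold it. RefSeq windows were matched for 7 of the 10 genes, the other 4 being Tek, Tie1, Eng and Emcn, with 2, 9, 4 and 6 GGAA cores. AGGAAG occurred 2 times each in Tie1, Eng and Emcn, and the GATA motif AGATAA occurred 1 time in Tek and in none of the other 6, with 11.2% of all windows holding it. The windows of Cdh5, Esam and Pecam1 were not used here. These matches describe letters in the window and say nothing of binding.

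Kdr, or VEGFR2, carries most of the VEGF-A signal in endothelial cells. Its log2 level was 9.36, 9.32, 9.45 and 9.37 in control replicates 1 to 4, then 9.97, 9.67, 9.87 and 9.78 in R140Q and 9.73, 10.09, 9.90 and 9.89 in R172K. Every array of both mutants lay above every control array, and the 2 mutant groups overlapped. Kdr rose 1.36-fold in R140Q hearts (log2 difference 0.45 ± 0.08 SE, adjusted p = 0.0208 by limma) and 1.44-fold in R172K hearts (0.53 ± 0.08, adjusted p = 0.0031). The R172K call held in each of 12 fits that left out 1 array. The R140Q call was lost without control replicate 1 (adjusted p = 0.0704), control replicate 2 (0.0705), R140Q replicate 1 (0.0652) or R140Q replicate 3 (0.0734), with differences of 0.40 to 0.50 over the 12 fits. Calls over all genes fell as well in those fits, from 439 to 100, 154, 141 and 110 in that order. A call lost in these or later fits thus need not be particular to its gene. The difference between the mutants was 0.08, with a 95% interval of −0.10 to 0.27.

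Flt4, or VEGFR3, is the receptor of VEGF-C and VEGF-D. Its level was 7.40, 7.28, 7.18 and 7.42 in the control arrays, 7.80, 7.58, 7.70 and 7.86 in the R140Q arrays and 7.53, 7.65, 7.34 and 7.49 in the R172K arrays. All R140Q arrays lay above all control arrays, while R172K replicate 3 lay within the control range. Flt4 rose 1.33-fold in R140Q hearts (0.42 ± 0.09, adjusted p = 0.0299 by limma) and was 0.18 higher on the log2 scale in R172K hearts without passing the test (adjusted p = 0.1914). Its R140Q call was the least stable of the 4. It was lost without control replicates 1 (adjusted p = 0.0704), 2 (0.0906) or 3 (0.0823) and without R140Q replicates 1 (0.0889), 3 (0.0798) or 4 (0.0762).

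Flt1, or VEGFR1, binds VEGF-A, VEGF-B and placental growth factor. Its level was 10.27, 10.29, 10.24 and 10.26 in the control arrays, 10.46, 10.48, 10.38 and 10.47 in the R140Q arrays and 10.13, 10.45, 10.35 and 10.04 in the R172K arrays. The R140Q arrays all lay above the controls, whereas 2 R172K arrays lay above and 2 below them. The R140Q difference of 0.18 ± 0.08 did not pass the test (adjusted p = 0.2731 by limma), and the R172K difference was −0.02 ± 0.08 (adjusted p = 0.8992). The SD of Flt1 was 0.02 in controls and 0.19 in R172K hearts.

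None of the 7 VEGF ligands and neuropilins passed the test in any of the 3 comparisons (at an unadjusted p under 0.05, 2 were higher and 1 lower in R140Q, 1 was lower in R172K, and 1 was lower in R172K than in R140Q). Of all genes, 2.2% were called in R140Q hearts, 13% in R172K hearts and 1.48% between the mutants, so few calls or none are usual for a list of 7. Vegfa, the chief ligand of Kdr, was 10.70 to 10.84 in controls and 10.91 to 11.33 in R140Q hearts, ranges that did not overlap. Its difference of 0.41 ± 0.12 had an adjusted p of 0.0946, and 0.0243 without R172K replicate 3, whose level of 10.54 lay below all control arrays. Vegfb, the Flt1 ligand of heart muscle, was 0.22 lower in R172K hearts (adjusted p = 0.0772, and 0.0311 without R172K replicate 3). Pgf, the other Flt1 ligand, was 0.44 lower in R140Q hearts (adjusted p = 0.2912) and 0.38 lower in R172K hearts (0.2678). Vegfc and Vegfd, the Flt4 ligands, differed from control by between −0.03 and 0.13 in the 2 mutants. The co-receptor Nrp2 was 0.53 higher in R140Q hearts (adjusted p = 0.1242, and 0.0290 without R172K replicate 4) and 0.26 higher in R172K hearts (0.3753). Nrp1 differed from control by 0.11 and 0.06 (adjusted p = 0.5825 and 0.7240).

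Of 17 genes linked to the VEGF response and to sprouting, all had positive differences in R140Q hearts, with a median of 0.31, and 14 did in R172K hearts, with a median of 0.28. In R140Q hearts 1 rose, Nos3 (0.31 ± 0.07, adjusted p = 0.0445), the endothelial nitric oxide synthase, in a call that held in only 2 of the 12 fits that each left out 1 array. In R172K hearts 2 rose, the phosphatase gene Dusp5 (0.49 ± 0.12, adjusted p = 0.0220) and the immediate early gene Nr4a1 (1.28 ± 0.35, adjusted p = 0.0317), each in 7 of the 12 fits. The R140Q difference of Nr4a1 was 1.29 and did not pass (0.0797), and that of Dusp5 was 0.17 (0.5466). Nos3 was 0.10 higher in R172K hearts (0.4063). Beside these counts, 1.08% of all genes were called higher in R140Q hearts and 6.23% in R172K hearts.

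**Figure D2:**
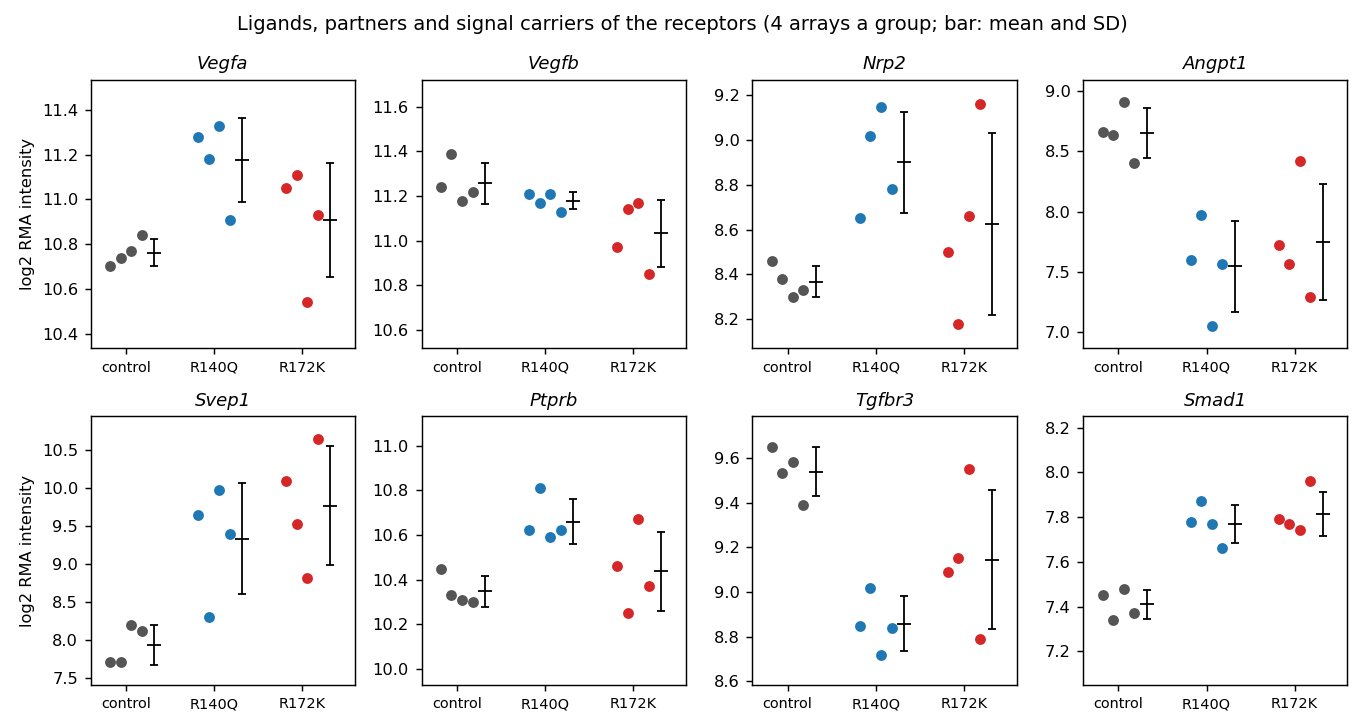
Log2 RMA intensity (vertical axis) of 8 ligands, partners and signal carriers of the receptors in each array, by group (horizontal axis), with the mean and SD of 4 arrays. Angpt1 lies lower in all R140Q arrays than in any control array, and Svep1 and Smad1 lie higher in all arrays of both mutants than in any control array.

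The receptors of the angiopoietin system did not pass the test in either mutant, while a ligand of theirs did. Tek, the angiopoietin receptor, had levels of 9.28, 9.38, 9.33 and 9.30 in controls, 9.46, 9.39, 9.48 and 9.55 in R140Q hearts and 9.42, 9.12, 9.21 and 9.71 in R172K hearts. The R140Q arrays lay just above the controls, and the R172K arrays spread to both sides of them, with 2 below the lowest control. The differences were 0.15 ± 0.11 (adjusted p = 0.5305 by limma) and 0.05 ± 0.11 (0.8376). Tie1, which pairs with Tek and modulates its signal, had levels of 9.07, 9.10, 8.90 and 8.77 in controls, 9.38, 9.18, 9.28 and 9.26 in R140Q hearts and 8.90, 8.83, 9.21 and 8.96 in R172K hearts. The R140Q arrays all lay above the controls, and the R172K arrays overlapped them. Its R140Q difference of 0.32 ± 0.10 had an adjusted p of 0.1063, and 0.0462 without R172K replicate 3. Its R172K difference was 0.02 ± 0.10 (adjusted p = 0.9408) and turned to −0.08 without control replicate 3, R140Q replicate 4 and R172K replicate 3.

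Angpt1, the ligand that activates Tek and is made largely by cells around the vessel, fell in both mutants. Its level was 8.66, 8.64, 8.91 and 8.40 in controls, 7.60, 7.97, 7.05 and 7.56 in R140Q hearts and 7.72, 7.56, 8.42 and 7.29 in R172K hearts. All mutant arrays but R172K replicate 3 lay below every control array. Angpt1 fell by 1.11 on the log2 scale in R140Q hearts (SE 0.23, adjusted p = 0.0299 by limma) and fell by 0.91 in R172K hearts (adjusted p = 0.0221). Each call held in 6 of the 12 fits that left out 1 array. The R140Q call was lost without control replicates 1, 2 or 3 or R140Q replicates 1, 3 or 4 (adjusted p = 0.0625 to 0.0896), and the R172K call without control replicates 1, 2 or 3 or R172K replicates 1, 2 or 4 (0.0546 to 0.0616). Angpt2, which opposes Angpt1 in many settings, differed by 0.11 in R140Q (adjusted p = 0.6888) and by −0.16 in R172K hearts (0.4134), and the R140Q value turned to −0.04 without control replicate 3, R140Q replicate 4 and R172K replicate 3.

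Svep1, an extracellular matrix protein reported to bind Tie1, rose in R172K hearts. Its level was 7.70 to 8.20 in controls, 8.30 to 9.98 in R140Q and 8.81 to 10.65 in R172K hearts, and every mutant array lay above every control array. It rose by 1.84 ± 0.39 in R172K hearts (adjusted p = 0.0102 by limma), a call that held in all 12 fits that left out 1 array. Its R140Q difference of 1.40 had an adjusted p of 0.0804, and of 0.0251, 0.0346 and 0.0365 without R140Q replicate 2, R172K replicate 3 and R172K replicate 4. Ptprb, the phosphatase that acts on Tek and Cdh5, was 0.31 higher in R140Q hearts without overlap (adjusted p = 0.0831, and 0.0296 without R172K replicate 3) and 0.09 higher in R172K hearts (0.5611). Of the 5 genes of the angiopoietin list, 0 rose and 1 fell in R140Q hearts, and 1 rose and 1 fell in R172K hearts. Called in either direction were 2.2% of all genes in R140Q hearts and 13% in R172K hearts.

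Eng, or endoglin, an abundant co-receptor that presents BMP9 and BMP10 to the receptor kinase Acvrl1, showed the smallest R140Q difference of the 10 genes. Its level was 10.83, 10.84, 11.05 and 11.04 in controls, 10.997, 10.94, 10.98 and 10.96 in R140Q hearts and 10.71, 10.69, 11.02 and 10.99 in R172K hearts. All R140Q arrays lay within the control range, and R172K replicates 1 and 2 lay below it. The differences were 0.03 ± 0.09 (95% interval −0.16 to 0.22, adjusted p = 0.9153 by limma) and −0.09 ± 0.09 (−0.28 to 0.10, adjusted p = 0.5843).

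Of 21 ligands, receptors and Smad proteins around endoglin, 1 rose and 1 fell in R140Q hearts, and 3 rose and 0 fell in R172K hearts. The shares of all genes called higher and lower were 1.08% and 1.12% in R140Q hearts, and 6.23% and 6.78% in R172K hearts. Smad1, which carries BMP signals to the nucleus, rose in both. Its level was 7.34 to 7.48 in controls, 7.66 to 7.87 in R140Q and 7.74 to 7.96 in R172K hearts, with no overlap between controls and either mutant. It rose by 0.37 ± 0.07 in R140Q hearts (adjusted p = 0.0217) and by 0.41 ± 0.07 in R172K hearts (0.0041). The R172K call held in all 12 fits that left out 1 array, and the R140Q call was lost without control replicates 1 or 2 or R140Q replicates 1 or 3 (adjusted p = 0.0613 to 0.0722). Tgfbr3, the other TGF-beta co-receptor, fell by 0.68 in R140Q hearts (adjusted p = 0.0229, in 6 of the 12 fits) and was 0.39 lower in R172K hearts (0.0685, and 0.0037 without R172K replicate 3). The ligands Tgfb1 and Tgfb2 rose in R172K hearts, by 0.74 ± 0.17 (adjusted p = 0.0142, in 12 of 12 fits) and 1.13 ± 0.28 (0.0215, in 8 of 12), while their R140Q differences of 0.57 and 0.79 did not pass (0.0939 and 0.1651). That of Tgfb1 passed without R172K replicate 3 (0.0415) or R172K replicate 4 (0.0104). Acvrl1 differed by 0.16 in R140Q (adjusted p = 0.3054) and by 0.03 in R172K hearts (0.8645), and the R172K sign turned under quantile normalization. Gdf2, which encodes BMP9, and Bmp10 did not pass in either mutant (adjusted p = 0.4504 to 0.9713).

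Cdh5, or VE-cadherin, the adhesion protein of endothelial adherens junctions, had the smallest p of the 3 junction genes in R140Q hearts. Its level was 11.12, 11.12, 11.02 and 11.05 in controls, 11.51, 11.50, 11.62 and 11.45 in R140Q hearts and 11.15, 11.07, 11.44 and 11.30 in R172K hearts. Every R140Q array lay above every control array and every R172K array, and R172K replicate 2 lay within the control range. Cdh5 rose 1.36-fold in R140Q hearts (0.45 ± 0.08, adjusted p = 0.0168 by limma) and was 0.16 higher in R172K hearts without passing (adjusted p = 0.2126). The R140Q call was lost without control replicate 1 (adjusted p = 0.0512), control replicate 3 (0.0520) or R140Q replicate 3 (0.0626).

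Esam, an immunoglobulin-family protein of endothelial tight junctions, rose in both mutants. Its level was 9.75, 9.96, 9.79 and 9.79 in controls, 10.14, 10.49, 10.34 and 10.29 in R140Q hearts and 10.05, 10.21, 10.47 and 10.29 in R172K hearts. All mutant arrays lay above all control arrays, and the mutants overlapped each other. Esam rose 1.40-fold in R140Q hearts (0.49 ± 0.10, adjusted p = 0.0239 by limma) and 1.35-fold in R172K hearts (0.43 ± 0.10, adjusted p = 0.0130). The R172K call held in all 12 fits that left out 1 array and was lost when control replicate 3, R140Q replicate 4 and R172K replicate 3 were left out together (0.35, adjusted p = 0.0514). The R140Q call was lost without control replicates 1 (0.0843), 3 (0.0649) or 4 (0.0550) or R140Q replicates 3 (0.0786) or 4 (0.0503).

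Pecam1, the CD31 adhesion molecule of endothelium, platelets and leukocytes, had levels of 9.73, 9.89, 9.996 and 9.78 in controls, 9.97, 10.15, 10.09 and 9.97 in R140Q hearts and 9.99, 9.86, 10.25 and 10.05 in R172K hearts. The 3 groups overlapped. Its differences of 0.20 ± 0.09 and 0.19 ± 0.09 did not pass the test (adjusted p = 0.2814 and 0.2058 by limma). Emcn, a sialomucin of capillary and venous endothelium, had levels of 10.15, 10.25, 10.68 and 10.54 in controls, 10.71, 10.69, 10.73 and 10.54 in R140Q hearts and 10.53, 10.58, 10.59 and 10.66 in R172K hearts. Control replicate 3 lay within the range of the mutant arrays, control replicate 4 lay below 7 of the 8, and the control SD of 0.25 was the highest of the 10 genes. Its differences of 0.26 ± 0.10 and 0.18 ± 0.10 had adjusted p-values of 0.2076 and 0.2926.

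Among 24 proteins that attach to or stand beside these junction genes, none passed in R140Q hearts by limma (at an unadjusted p under 0.05, 3 were higher and 1 lower). In that comparison 2.2% of all genes were called in either direction. In R172K hearts 3 of the 24 rose, where 6.23% of all genes were called higher. Afdn, or afadin, which ties nectins to actin, rose by 0.34 ± 0.08 (adjusted p = 0.0142, in 11 of 12 fits that left out 1 array), and its R140Q difference of 0.31 had an adjusted p of 0.0555, and of 0.0336, 0.0270 and 0.0398 without R140Q replicate 2, R172K replicate 3 and R172K replicate 4. Ctnnd1, or p120-catenin, which binds the tail of VE-cadherin, rose by 0.25 ± 0.07 (0.0251, in 8 of 12) and was 0.19 higher in R140Q hearts (0.1426). F11r, or JAM-A, a relative of Esam, rose by 0.32 ± 0.09 (0.0257, in 7 of 12) and was 0.15 higher in R140Q hearts (0.3974). Cldn5, the main endothelial claudin, was 8.22 to 8.35 in controls and 8.58 to 9.59 in R172K hearts without overlap, a difference of 0.72 that did not pass (adjusted p = 0.1219). In R140Q hearts it ranged from 8.26 to 9.74, and replicate 1 alone lay above 9 (difference 0.49, adjusted p = 0.4277).

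**Figure D3:**
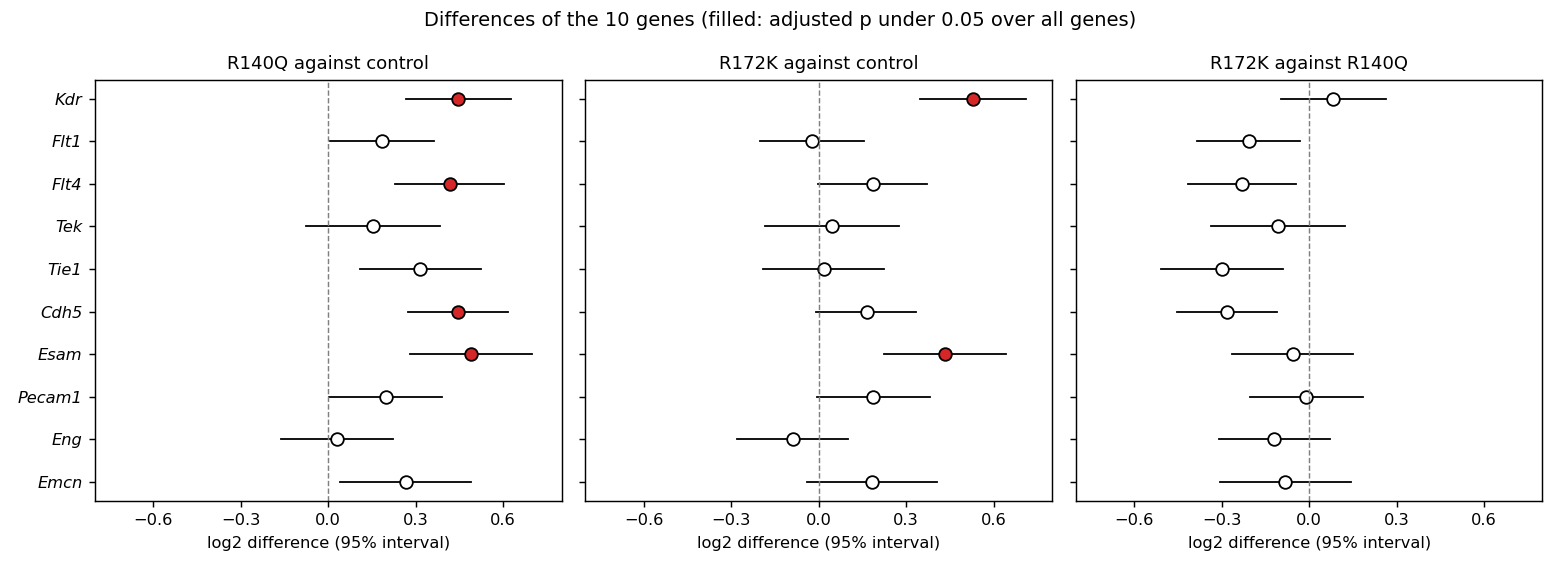
Log2 difference (horizontal axis) of each of the 10 genes (vertical axis) in the 3 comparisons, with its 95% interval, and filled points for an adjusted p under 0.05 over all genes. Filled points are Kdr, Flt4, Cdh5 and Esam in R140Q against control and Kdr and Esam in R172K against control, and no point is filled in R172K against R140Q.

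None of the 10 genes differed between the mutants by limma at an adjusted p under 0.05, where 1.48% of all genes were called (0.998% lower and 0.487% higher in R172K, with 97 genes higher and 199 lower, and 69 and 252 with each array centred on its median). At an unadjusted p under 0.05, 4 were lower in R172K hearts, namely Cdh5, Tie1, Flt4 and Flt1. The share of all genes at that cut was not counted, so this count is description only. Of the 10 differences 1 was positive, that of Kdr. The median of the 10 was −0.11, against −0.003 over all genes. Cdh5 was the 1 gene whose mutant groups did not overlap, as was so in this direction for 4.64% of all genes. It was 0.28 lower in R172K (95% interval −0.45 to −0.11, adjusted p = 0.0955), and Tie1 was 0.30 lower (−0.51 to −0.09, 0.1377). Both passed without R172K replicate 3, Cdh5 at −0.35 (adjusted p = 0.0122) and Tie1 at −0.38 (0.0226). For Esam the interval was −0.27 to 0.15, and for Pecam1 it was −0.20 to 0.18.

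**Figure D4:**
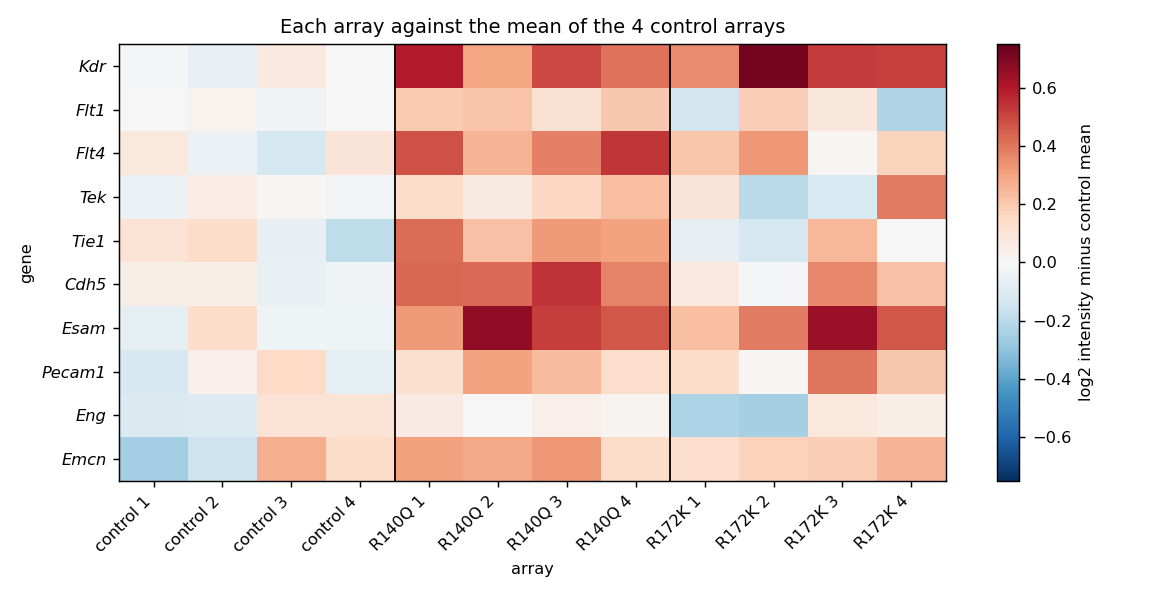
Log2 intensity of each of the 10 genes (rows) in each of the 12 arrays (columns) minus the mean of the 4 control arrays, on a colour scale from blue (lower) to red (higher). The R140Q columns are red in most rows, and the R172K columns are red to differing depths for Kdr and Esam and mixed for Flt1, Tek, Tie1 and Eng.

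Array by array, the mean of the 10 differences from the control mean was 0.31, 0.27, 0.31 and 0.28 in R140Q replicates 1 to 4. It was 0.08, 0.12, 0.25 and 0.20 in R172K replicates 1 to 4, and between −0.04 and 0.03 in the control arrays. Between 7 and 9 of the 10 genes lay above the highest control array in each R140Q array, and between 4 and 6 in each R172K array. Below the lowest control array lay 2, 2, 1 and 1 genes in R172K replicates 1 to 4, and 0 in every R140Q array. The shares of all genes above or below the controls in a single array were not counted, so these counts are description only. R140Q replicate 4, the array with lung marker signal, thus had a mean like those of the other R140Q arrays.

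Across the 12 arrays, which share the 3 groups, 42 of the 45 pairs among the 10 genes had a positive Pearson correlation, with a median of 0.39 and a range of −0.32 to 0.87. The closest partner of Cdh5 was Tie1 (0.865), that of Esam was Pecam1 (0.808) and that of Kdr was Esam (0.731). Each gene is itself part of the mean of the 10, which raises its correlation with that mean. Cdh5 followed the mean of the 10 most closely (0.932) and Eng least (0.324). Outside the 10, the genes most like that mean were Rasip1 (0.953), Ppp1r3c (0.942), Dock1 (0.913), Gdf11 (0.910), Adamts9 (0.906) and Sh3gl2 (0.905). They were picked over the same 12 arrays, in which that mean is higher in the mutants. Their differences between groups thus follow in part from the choice and are given as description only. Rasip1, an endothelial gene needed for vessel tube formation, was 8.11 to 8.13 in controls, 8.57 to 8.72 in R140Q and 8.31 to 8.64 in R172K hearts. It rose by 0.54 ± 0.08 (adjusted p = 0.0055 by limma) and 0.36 ± 0.08 (0.0121), in all 12 fits that left out 1 array for each mutant. Adamts9, a matrix protease, rose by 1.03 ± 0.12 (adjusted p = 0.0039) and 0.77 ± 0.12 (0.0031), and Ppp1r3c, a glycogen-targeting phosphatase subunit, by 0.89 ± 0.11 (0.0039) and 0.44 ± 0.11 (0.0190, in 9 of 12).

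Among 23 other markers found across endothelial cells, 6 rose and 0 fell in R140Q hearts, where 21 differences were positive and the median was 0.30. In R172K hearts 4 rose and 1 fell, 17 were positive and the median was 0.09. The shares of all genes called higher and lower were 1.08% and 1.12% in R140Q hearts, and 6.23% and 6.78% in R172K hearts. Cd93, a receptor in endothelial adhesion and migration, rose in both (0.67 ± 0.13, adjusted p = 0.0251, in 8 of 12 fits, and 0.57 ± 0.13, 0.0153, in 12 of 12). Gimap4 also rose in both, by 0.63 in R140Q hearts (0.0252, in 5 of 12) and by 0.47 in R172K hearts (0.0270, in 8 of 12). Arhgef15, a guanine nucleotide exchange factor of endothelium, rose by 0.34 in R140Q hearts (0.0335, in 6 of 12) and was 0.07 higher in R172K hearts (0.6187). Mcam, or CD146, which endothelial and mural cells share, rose by 1.01 ± 0.17 in R172K hearts (0.0040), and its R140Q difference of 0.72 had an adjusted p of 0.0502, and of 0.0460, 0.0250 and 0.0164 without R140Q replicate 4, R172K replicate 3 and R172K replicate 4. Thbd, or thrombomodulin, an anticoagulant receptor, fell by 0.42 in R172K hearts (0.0115) and was 0.09 higher in R140Q hearts (0.7005). Thbd was 0.51 lower in R172K than in R140Q hearts (adjusted p = 0.0287, in 7 of 12 fits).

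Of 26 endothelial transcription factors, 1 rose in R140Q hearts, Sox18 (0.54 ± 0.12, adjusted p = 0.0445, in 4 of 12 fits that left out 1 array), and its R172K difference was 0.33 (0.0950, and 0.0435 without R140Q replicate 4). In R172K hearts the ETS factors Fli1 (0.43 ± 0.07, adjusted p = 0.0047, in 12 of 12) and Elk3 (0.39 ± 0.11, 0.0318, in 6 of 12) rose, and their R140Q differences were 0.22 (0.1539) and 0.24 (0.2762). Sox7, a relative of Sox18, fell by 0.42 in R172K hearts (0.0194, in 9 of 12) and was 0.66 lower than in R140Q hearts (0.0227, in 7 of 12). Of 12 Notch genes of vessels, 2 rose in R140Q hearts, the target genes Hes1 (0.68 ± 0.15, adjusted p = 0.0375) and Nrarp (0.90 ± 0.20, 0.0416), each in 4 of the 12 fits. Hes1 also rose in R172K hearts (0.64 ± 0.15, 0.0153, in 11 of 12), and Nrarp was 0.62 higher there without passing (0.0631). Beside the counts of both lists, 1.08% of all genes were called higher in R140Q hearts. In R172K hearts 6.23% were called higher and 6.78% lower.

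Markers of particular vessel types were counted in the same way. Over all genes, 2.2% were called in R140Q hearts, 13% in R172K hearts and 1.48% between the mutants. Beside Kdr, no other of the 14 capillary genes passed against control in either mutant, and the water channel Aqp1 was 0.71 lower in R172K than in R140Q hearts (adjusted p = 0.0466, in 1 of 12 fits that left out 1 array). Of 12 arterial markers none passed in R140Q hearts (4 higher and 1 lower at an unadjusted p under 0.05), and in R172K hearts Fbln5 rose by 0.80 (0.0276, in 6 of 12 fits) and Cxcl12 fell by 0.38 (0.0389, in 4 of 12). Their R140Q differences were 0.48 (0.2727) and −0.21 (0.3532). None of the 7 venous or 8 endocardial markers passed in any comparison by limma (at an unadjusted p under 0.05, 1 venous and 3 endocardial genes were lower in R140Q hearts, 1 endocardial gene was higher and 1 lower in R172K hearts, and between the mutants 1 venous gene was lower and 1 endocardial gene higher in R172K). Of 7 lymphatic markers, Flt4 passed in R140Q hearts (2 higher and 1 lower at an unadjusted p under 0.05), while Pdpn (0.92 ± 0.22, adjusted p = 0.0191, in 9 of 12) and Reln (0.37 ± 0.10, 0.0347, in 6 of 12) rose in R172K hearts. The R140Q differences of Pdpn and Reln were 0.55 (0.2279) and 0.08 (0.7835), and Pdpn is also made by fibroblasts. The lymphatic list summed to an intensity of 1930 to 2270 in controls, 1630 to 1874 in R140Q hearts, below every control array, and 2003 to 2113 in R172K hearts. Of 8 activation genes, Sele, or E-selectin, rose in R172K hearts (0.57 ± 0.16, 0.0391, in 4 of 12) and was 0.46 higher in R140Q hearts (0.1671). The calls of Fbln5, Reln and Sele were lost, among other arrays, without control replicate 3 (adjusted p = 0.0595, 0.0785 and 0.0751) or R172K replicate 4 (0.0690, 0.0859 and 0.0964).

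**Figure D5:**
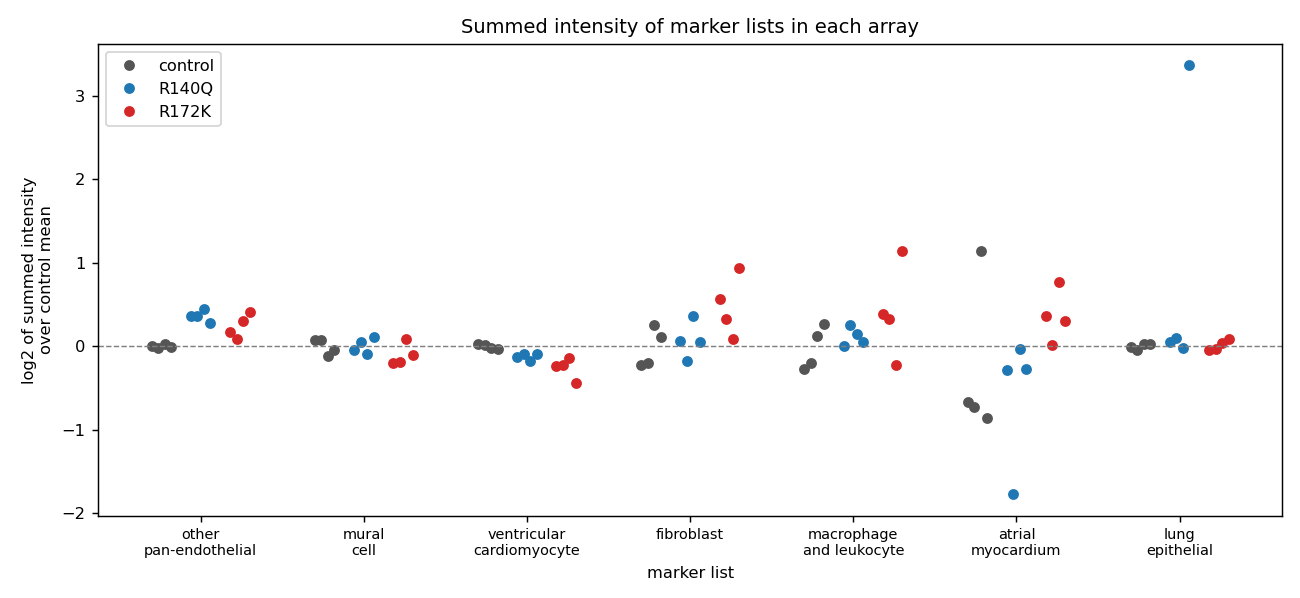
Summed intensity of 7 marker lists (horizontal axis) in each array, as log2 over the mean of the control arrays (vertical axis), with 1 point for each array. The sum over the other pan-endothelial markers lies higher in every mutant array than in any control array, that of the ventricular cardiomyocyte markers lies lower, and R140Q replicate 4 stands apart for lung and control replicate 3 for atrium.

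Marker lists of other cell types were counted as well. Their counts stand beside 2.2% of all genes called in R140Q hearts and 13% in R172K hearts, in either direction. The 23 other pan-endothelial markers summed to an intensity of 11100 to 11439 in controls, 13589 to 15326 in R140Q and 11922 to 14984 in R172K hearts. The 12 ventricular cardiomyocyte markers summed to 121820 to 126938, 109847 to 116965 and 92167 to 113221. Of the latter, 0 passed in R140Q hearts (5 lower at an unadjusted p under 0.05) and 8 fell in R172K hearts, among them the ventricular myosin light chain Myl2 (−0.54, adjusted p = 0.0109). The 12 fibroblast markers summed to 12886 to 18058 in controls, 13355 to 19499 in R140Q and 16109 to 28941 in R172K hearts, and in R172K hearts 6 of them rose, such as Postn (2.68 ± 0.56, 0.0097), and 1 fell. The 12 mural markers summed to 11374 to 12963, 11525 to 13337 and 10716 to 13121, with none called in R140Q and 2 up and 1 down in R172K hearts. None of the 13 macrophage and leukocyte markers passed (1 higher in R140Q and 3 higher in R172K at an unadjusted p under 0.05), and their sums were 3180 to 4656, 3850 to 4582 and 3313 to 8512. The 5 platelet markers, a cell type that shares Pecam1, summed to 528 to 1261, 773 to 1252 and 575 to 753, with none called (1 higher in R140Q at an unadjusted p under 0.05). None of the 10 lung, 9 proliferation or 2 erythroid markers passed against control (in R140Q hearts 1 lung and 2 proliferation genes were higher at an unadjusted p under 0.05, and in R172K hearts 1 proliferation gene). The differences of all 9 proliferation markers were positive in both mutants, with medians of 0.81 in R140Q and 0.66 in R172K hearts, and the list summed to 504 to 606 in controls, 612 to 1021 in R140Q and 484 to 1904 in R172K hearts. In R172K replicates 1 to 4 this sum was 533, 484, 922 and 1904, so replicates 1 and 2 did not exceed the controls. Replicate 4 also held the highest fibroblast sum (28941) and macrophage and leukocyte sum (8512). Of the 10 atrial markers, 0 passed in R140Q hearts (1 higher and 5 lower at an unadjusted p under 0.05) and Pam rose by 0.59 in R172K hearts (adjusted p = 0.0457, in 2 of 12 fits). The part of these cell types in the levels of the 10 genes was not tested.

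The R140Q calls were measured again with the atrial and lung signal in view. Without R140Q replicate 4, Cdh5 and Kdr passed, while Esam (0.50, adjusted p = 0.0503) and Flt4 (0.37, 0.0762) did not. Without control replicate 3, R140Q replicate 4 and R172K replicate 3 together, Cdh5 passed (0.45, adjusted p = 0.0275) and Kdr (0.48, 0.0584), Esam (0.49, 0.0590) and Flt4 (0.33, 0.0846) did not. With the log2 level of Myl7 as a covariate the differences were 0.50 for Cdh5, 0.48 for Kdr, 0.50 for Esam and 0.30 for Flt4, and none passed (adjusted p = 0.1150 to 0.3667). Their SE was 0.11 to 0.14, against 0.08 to 0.10 without the covariate. Myl7 itself did not overlap between R140Q and control arrays, so this fit cannot tell the atrial signal from the group. In that fit 13 of all genes were called, against 439 without the covariate. With it, Kdr (0.53, adjusted p = 0.0050) and Esam (0.43, 0.0182) passed in R172K hearts.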

How the data were processed

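Heart RNA of 12 samples was hybridised to Affymetrix mouse gene arrays. The authors deposited 1 linear intensity per probe set and array, made with RMA per the submitters' processing notes; the sources used here give no annotation build. Of 34760 probe sets, 21640 have 1 gene symbol, 1321 have several and 11799 have none listed and were left out. The probe set with the highest mean stood for each of 19937 genes (954 genes had more than 1). Intensities were taken to log2 with no pseudocount and no filter, since the values hold no detection calls. limma 3.58.1 in R 4.3.3 (lmFit, contrasts.fit, eBayes, two-sided) was fitted with group means on all 12 arrays, and the fit was tested on simulated data. Alternatives covered the arrays fitted, replicate block, probe set rule, dim genes, normalization, variance model, array weights, pseudocount of 16, Myl7 as a covariate, a threshold of 0.01 and each array left out in turn.

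The 10 genes and the 23 other lists were chosen with earlier results of these data known, so a list is described by its counts and median with no test of its own. Of 263 genes written in those lists, 251 were measured. Named genes are the 10, their ligands and partner receptors, up to 4 called genes with the smallest p of each list and comparison, 1 marker per other cell type and the 6 most correlated named genes. Replicate numbers were tested as pairs and did not pair the samples. Promoter windows are from RefSeq (GRCm38.p6).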

Additional observations from a re-analysis of the deposited data

Results flagged for a closer look

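None of the 10 genes had an array far from the other 3 of its group by Dixon's test. Among 249 groups of 4 values tested, 10 held such an array, and chance flags about 1 group in 20. Of the ligands and partners, Nrp1 was 10.11 in R172K replicate 3 against 10.43 to 10.48 in the other 3 arrays. Ptprb was 10.45 in control replicate 1 against 10.30 to 10.33, and 10.81 in R140Q replicate 2 against 10.59 to 10.62. Sox7 was 7.95 in control replicate 2 against 8.13 to 8.17, and Aqp1 was 11.46 in the same array against 11.24 to 11.27. Reln was 7.10 in control replicate 4 against 6.93 to 6.95, and Dock1 was 8.93 in R172K replicate 4 against 8.80 to 8.82. Pam, an atrial marker, was 11.62 in R140Q replicate 2 against 12.21 to 12.23. The lung epithelial sum of R140Q replicate 4 (5459) and the atrial sum of control replicate 3 (35171) were also far from their groups.

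The mutants differed by limma at an adjusted p under 0.05 in 6 genes of the other lists. R172K hearts were higher for the TGF-beta receptor Tgfbr2 (0.37, adjusted p = 0.0411), the fibroblast receptor Pdgfra (0.75, 0.0207) and the atrial light chain Myl4 (3.52, 0.0458). They were lower for Sox7 (−0.66, 0.0227), Thbd (−0.51, 0.0287) and Aqp1 (−0.71, 0.0466). In the 12 fits that left out 1 array, the call held in 1 for Tgfbr2, 8 for Pdgfra, 3 for Myl4, 7 for Sox7, 7 for Thbd and 1 for Aqp1. Calls over all genes in this comparison ranged from 1 to 1577 over those fits, against 296 with all 12 arrays.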

How the results depend on the processing

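In R140Q hearts 4 of the 10 genes rose. The count was 2 with the replicate number as a block (replicate block), although the numbers do not pair the samples (correlations of −0.336 to 0.152), 0 with Myl7 as a covariate, 1 without control replicate 3, R140Q replicate 4 and R172K replicate 3, 0 at an adjusted p under 0.01, and 0 to 5 over the 12 fits that left out 1 array. The median difference was 0.35 with Myl7 as a covariate and 0.27 to 0.33 over those 12 fits. In R172K hearts the count of 2 was 1 without the same 3 arrays and 1 at an adjusted p under 0.01, and stayed at 2 to 2 in the 12 fits. Between the mutants the count of 0 was 2 with array weights, 1 without the 3 arrays and 0 to 2 over the 12 fits. For the other pan-endothelial markers, the 6 higher in R140Q hearts became 10 with 2 groups alone, 2 with the replicate block, 3 with every probe set on its own, 10 with array weights, 0 with Myl7 as a covariate, 1 at an adjusted p under 0.01 and 1 to 9 over the 12 fits, and the 4 in R172K hearts became 1 at an adjusted p under 0.01 and 3 to 5.

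Signs turned only in differences that had not passed. Tie1 in R172K hearts was −0.012 with quantile normalization, −0.052 with array weights, −0.082 without the 3 arrays and −0.062 to 0.066 over the 12 fits. Acvrl1 there was −0.0012 and −0.031 under the first pair and −0.048 to 0.075 over the 12 fits. Angpt2 in R140Q hearts was −0.040 without the 3 arrays. Angpt1 between the mutants was −0.128 with Myl7 as a covariate, −0.016 without the 3 arrays and −0.022 to 0.355 over the 12 fits. Over the 12 fits Eng ranged from −0.0067 to 0.067 in R140Q hearts, Flt1 from −0.092 to 0.044 and Tek from −0.070 to 0.128 in R172K hearts, and Esam from −0.128 to 0.011 and Pecam1 from −0.082 to 0.049 between the mutants. Of 250 values of the 10 genes in each comparison, 214, 239 and 239 kept their direction and their side of the threshold. Calls over all genes in R140Q hearts ranged from 13 (Myl7 as a covariate) to 1651 (array weights), against 439, in R172K hearts from 773 (adjusted p under 0.01) to 4491 (array weights), against 2593, and between the mutants from 1 (adjusted p under 0.01) to 1774 (array weights), against 296. Over the 12 fits they ranged from 100 to 1015, from 1327 to 4157 and from 1 to 1577. Between the mutants 1 gene was called without R140Q replicate 4 or R172K replicate 1. Without R140Q replicate 1 or R172K replicate 2 it was 5 genes. The cause was not tested.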
